A study of Caenorhabditis elegans with 24 samples.

Results

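MicroRNAs (miRNAs) recovered with the Argonaute protein ALG-1 were compared between Caenorhabditis elegans carrying alg-1(ma443, G199S) and wild-type N2 animals (WT). The comparison used 4 of the 24 libraries of the study, the ALG-1 immunoprecipitate (IP) libraries 1 and 2 of each genotype, and all 437 mature miRNAs listed in the deposited count table. G199S is 1 of 4 alleles built to mimic human AGO1 changes seen in neurodevelopmental disorders. Set beside it were the IP libraries of alg-1(ma447, F180del), a second such allele, and of alg-1(tm492, 0), the null, as well as total small RNA of the lysates of G199S and WT, with 2 libraries in each group. Single values are also given for the IPs of alg-1(zen25, V254I) and alg-1(zen18,H751L), the remaining alleles of that set. All were whole animals, grown from starved hatchlings and harvested after 45 h of feeding at 20 °C. Nothing in the labels says that libraries 1 and 2 of a genotype came from separate cultures, so the p-values measure only how far such libraries scatter, which may be technical scatter.

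A miRNA hairpin is cut into a duplex of 2 strands, and an Argonaute keeps one of them, the guide, which directs it to target messenger RNAs. The other strand, the passenger, is normally released and degraded. ALG-1 and its close relative ALG-2 hold most miRNAs of the worm and act in embryonic development and in the timing of larval development. Here the arm (5p or 3p) with more reads over the 12 total RNA libraries was taken as the guide and the other arm as the passenger.

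The WT IP libraries held 11851546 and 12407061 miRNA reads and the G199S IP libraries 11437670 and 6976045. Of the 437 miRNAs, 269 passed the filter on low counts. Of the 168 that did not, 85 had no read in these 4 libraries and the others reached at most 1.10 reads per 1000000 miRNA reads (RPM). The null IP libraries, in which no ALG-1 should be present, still held 9889892 and 4667774 miRNA reads, so read numbers give no measure of how much each IP recovered. All levels are therefore relative within a library, nothing was subtracted, and null IP values are given beside the results. In the WT IP the most abundant miRNAs were miR-228-5p (13.6% and 13.2% of reads), miR-1-3p, miR-80-3p, miR-48-5p and miR-81-3p, and none but miR-81-3p was called different in G199S. miR-228-5p, at -0.89 ± 0.34 on the log2 scale (edgeR adjusted p = 0.0825), was called lower under RLE scaling (adjusted p = 0.0257).

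In the G199S IP, 38 of 104 passenger strands and 5 of 8 members of the embryonic miR-35 family were higher than in WT, while let-7 and its relatives miR-84 and miR-241 were lower. In all, 55 of 269 miRNAs were higher and 13 lower by edgeR's quasi-likelihood test at a Benjamini-Hochberg adjusted p under 0.05, so 25.3% were called, 20.4% as higher and 4.83% as lower. The median log2 fold change over the 269 was 0.24. Both G199S libraries lay above both WT libraries for 131 miRNAs (48.7%) and below them for 49 (18.2%). The counts of calls were 35 without WT library 1 and 31 without WT library 2, all of them among the 68. Scaling by library totals in place of edgeR's TMM factors raised the log2 changes by 0.30 in the median and gave 61 higher and 5 lower, while DESeq2's size factors (RLE) lowered them by 0.25 and gave 51 higher and 22 lower.

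**Figure D1:**
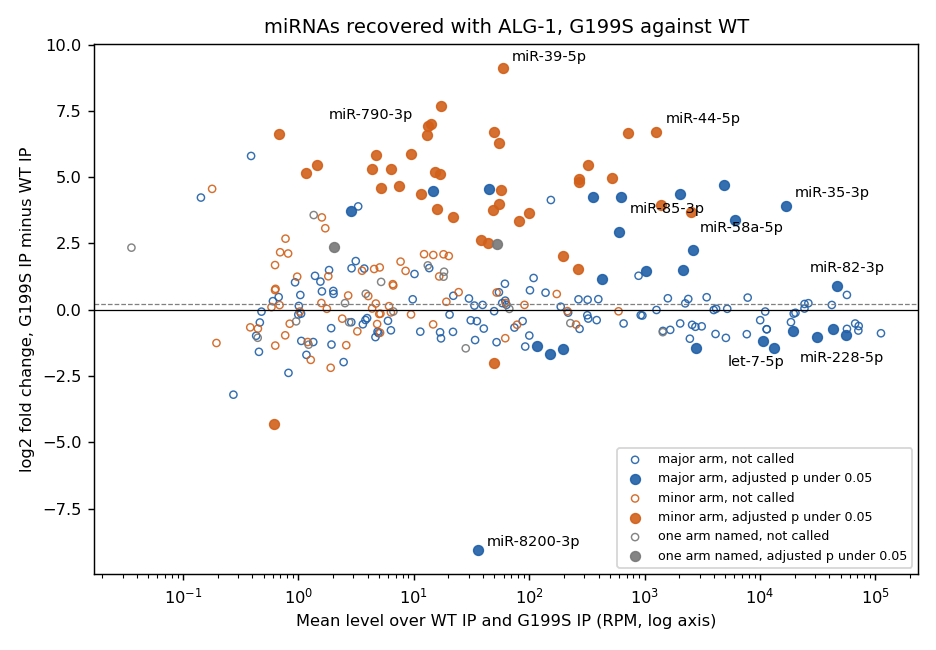
Log2 fold change in the ALG-1 IP (G199S minus WT, y axis) against the mean RPM over both IP groups (x axis, log scale) for the 269 miRNAs tested, coloured by arm, with filled points for adjusted p under 0.05. The dashed line is the median of 0.24. Most filled points above it are minor arms (passengers), and the lower ones are mostly abundant major arms.

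Guides and passengers behaved differently in their counts. Of 146 guides tested, 15 were called higher and 11 lower, with a median log2 change of -0.15. Of 104 passengers, 38 were higher and 2 lower, with a median of 1.504. Both G199S libraries lay above both WT libraries for 70 passengers and below them for 8. For the 146 guides these counts were 52 and 38, and for all 269 miRNAs 131 (48.7%) and 49 (18.2%). The remaining 19 miRNAs have one arm named, and 2 of those, miR-359 and miR-78, were higher. The miRNAs were also split by their mean level over the 12 IP libraries. Between 10 and 100 RPM, 16 of 32 passengers were higher, beside 1 of 27 guides. Between 100 and 1000 RPM it was 9 of 16 beside 5 of 26, between 1 and 10 RPM 9 of 39 beside 2 of 28. Under 1 RPM it was 3 of 16 beside 0 of 15. That mean includes the G199S libraries, so a rise in G199S itself lifts a passenger into a higher range. The ranges therefore do not match guides and passengers by their level in WT.

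The miR-35 family, 8 miRNAs made in the germline and early embryo and required for embryonic development and fecundity in C. elegans, made up 0.442% and 0.539% of reads in the WT IP. It made up 5.67% and 6.26% in the G199S IP, and 0.235% and 0.257% in the null IP. Of its 8 guides, 5 were called higher and none lower, with a median log2 change of 4.02 beside 0.24 over all 269. In whole animals, more cells that make a miRNA and more of it per cell cannot be told apart, nor can fewer cells and less RNA per cell.

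miR-35-3p, the most abundant member, was at 1864 and 1598 RPM in WT and at 31680 and 31990 RPM in G199S. Its log2 change was 3.90 ± 0.26 (SE, n = 2 per group, edgeR adjusted p = 3.90e-06). miR-40-3p went from 1005 and 765 RPM to 10910 and 11450 RPM, a log2 change of 3.37 ± 0.30. In both the G199S libraries agreed closely with each other and lay more than 10 times above either WT library. miR-37-3p, at 280 and 308 RPM in WT, was at 8166 and 10790 RPM in G199S (4.71 ± 0.52). miR-39-3p went from 136 and 171 RPM to 3044 and 4775 RPM (4.36 ± 0.42). These 4 calls held whichever 1 of the 4 libraries was left out.

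The scarcer members lay in the same direction with more spread. miR-38-3p was at 0.169 and 1.77 RPM in WT and at 18.4 and 38.6 RPM in G199S. Its change of 4.50 ± 1.41 passed (edgeR adjusted p = 0.0385) but missed the threshold whichever 1 library was left out, at adjusted p from 0.0563 to 0.217. miR-36-3p had 8.10 and 18.5 RPM in WT and 194 and 397 RPM in G199S, without overlap, and was not called (4.14 ± 1.42, edgeR adjusted p = 0.0538), though it was with library totals (adjusted p = 0.0296). miR-41-3p was at 0.253 and 0.403 RPM in WT and at 1.66 and 10.9 RPM in G199S and was not called (edgeR adjusted p = 0.101).

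The member that stood apart was miR-42-3p, the 1 member made from another hairpin cluster. It was at 2101 and 1552 RPM in WT and at 2711 and 3203 RPM in G199S, above both WT libraries but by a log2 change of only 0.41 ± 0.32 (edgeR adjusted p = 0.428). The 7 other hairpins, mir-35 to mir-41, lie on the plus strand of chromosome II at 11537608 to 11538404 (WBcel235), within an intron of Y62F5A.9, a gene of the other strand, and mir-42 lies at 11889811 to 11889905. The summed 3p reads of mir-35 to mir-41 were 1.57 and 1.85 times those of miR-42-3p in WT and 19.9 and 18.6 times in G199S. In F180del the ratio was 3.23 and 4.33, and in the null 2.09 and 1.56.

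Passengers of the same cluster were also recovered in G199S. The 5p arms of mir-35 to mir-41 made up 0.0589% and 0.0394% of the cluster's reads in the WT IP and 0.496% and 0.430% in the G199S IP, beside 0.373% and 0.585% in the null IP. miR-39-5p had 0.338 and 0 RPM in WT and 103 and 134 RPM in G199S. miR-35-5p had 3 reads over the WT libraries and 621 over the G199S libraries, 273 times the level (95% counting interval 92.9 to 1326). Of the 13 arms of the cluster that were tested, 9 were called higher, beside 20.4% over all 269 miRNAs.

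**Figure D2:**
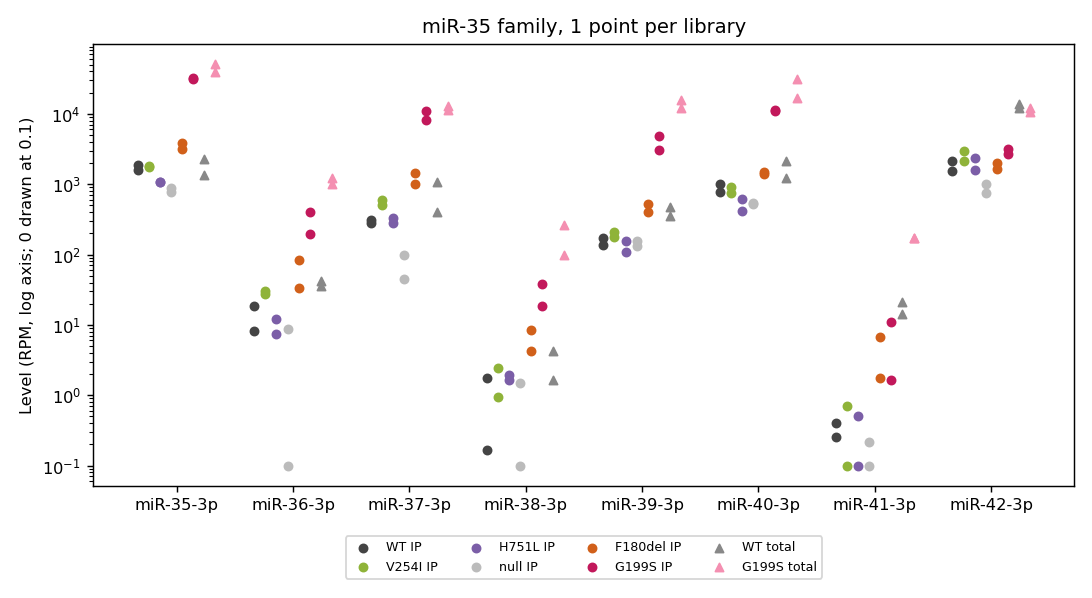
Levels of the 8 guides of the miR-35 family (RPM, log axis, 0 drawn at 0.1) with 1 point per library for the 6 IP genotypes (circles) and for WT and G199S total RNA (triangles). G199S IP lies above every other IP genotype for miR-35-3p, miR-37-3p, miR-39-3p and miR-40-3p, while the genotypes lie close together for miR-42-3p.

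Among the heterochronic miRNAs, which time larval development, 3 were lower in the G199S IP. The let-7 family was 10.5% and 11.1% of WT IP reads and 7.75% and 8.25% of G199S IP reads. Of its 7 members 3 were called lower and none higher, beside 4.83% lower and 20.4% higher over the 269. Their median log2 change was -0.52, beside 0.24. let-7-5p, which promotes the change from larva to adult, was at 14700 and 12980 RPM in WT and at 7757 and 7325 RPM in G199S. The difference of -1.17 ± 0.21 (edgeR adjusted p = 0.00204) held whichever 1 library was left out and under both other scalings. In the null IP let-7-5p was higher than in either, at 48670 and 34650 RPM.

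miR-241-5p, which acts in mid-larval development, fell from 3553 and 4021 RPM to 1950 and 1536 RPM (-1.43 ± 0.35, edgeR adjusted p = 0.0119). Its call was lost without G199S library 2 (adjusted p = 0.103) or WT library 2 (0.0925). miR-84-5p varied between the WT libraries, at 10220 and 26050 RPM, and was at 9262 and 7812 RPM in G199S. Its change of -1.43 ± 0.44 (edgeR adjusted p = 0.0373) was -0.45 without WT library 2 (adjusted p = 0.535), and with library totals it missed the threshold at 0.0697. The call was also lost without either G199S library, at adjusted p of 0.119 and 0.195.

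miR-48-5p, the most abundant let-7 relative, was at 82350 and 61750 RPM in WT and at 62880 and 60250 RPM in G199S, with overlapping libraries (-0.52 ± 0.21, edgeR adjusted p = 0.0987, or 0.0244 with RLE). miR-793, miR-794-5p and miR-795-5p were not called, with log2 changes of -0.50, 0.42 and -0.33. In total RNA, miR-795-5p rose from 5.89 and 14.9 RPM to 80.3 and 71.2 RPM (2.61 ± 0.77, edgeR adjusted p = 0.0378). lin-4-5p, which ends first-stage fates by repressing lin-14, was at 6035 and 3961 RPM in WT and at 4058 and 2432 RPM in G199S, again overlapping (-0.91 ± 0.32, edgeR adjusted p = 0.0632). It was called with RLE (adjusted p = 0.0231), and in total RNA it fell from 9844 and 4255 RPM to 1907 and 1476 RPM (-2.24 ± 0.61, edgeR adjusted p = 0.0260). Its relative miR-237-5p was not called either (-0.52 ± 0.25). The tissue-restricted miRNAs of muscle (miR-1-3p), glia (miR-228-5p), intestine (miR-60-3p), neurons (5 miRNAs) and the posterior body and seam (2) had no call among them, beside 25.3% called over the 269. Summed neuronal miRNAs were 0.264% and 0.289% of WT reads and 0.230% and 0.239% of G199S reads. The glial miRNA went from 13.59% and 13.24% to 8.004% and 9.88%, and that of muscle from 7.685% and 8.889% to 4.633% and 7.268%. The intestinal miRNA rose from 0.2684% and 0.242% to 0.4267% and 0.4444%. None of these shares overlapped between WT and G199S, so the lack of calls does not show unchanged levels. Over the 269 miRNAs, 48.7% lay above WT and 18.2% below it without overlap, so non-overlap alone does not set these tissues apart. Shares for the posterior body and seam overlapped, at 2.681% and 1.652% beside 2.974% and 2.452%.

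**Figure D3:**
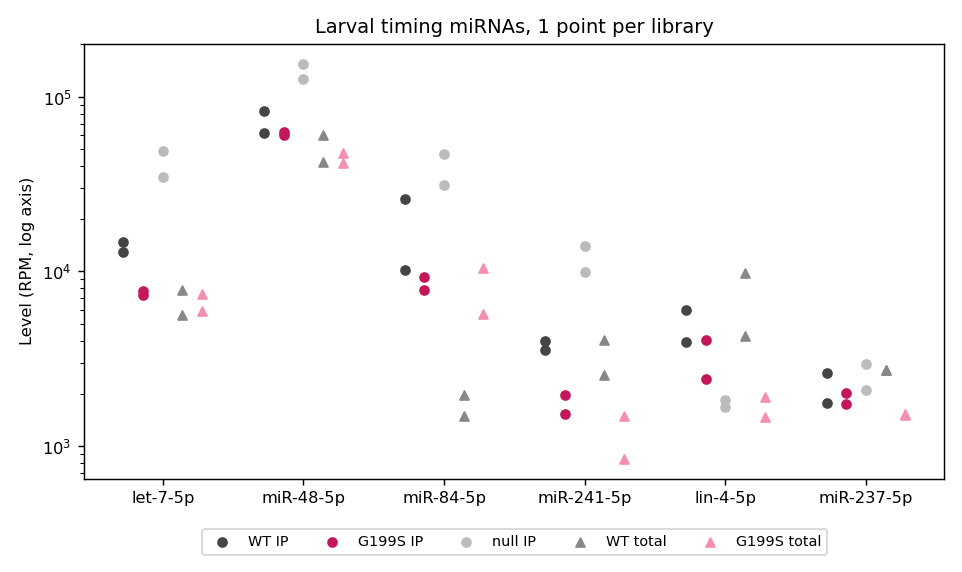
Levels of 6 larval timing miRNAs (RPM, log axis) with 1 point per library in WT, G199S and null IP (circles) and in WT and G199S total RNA (triangles). G199S IP lies below WT IP for let-7-5p, miR-84-5p and miR-241-5p, and the null IP lies above both for those 3.

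The largest fall was that of miR-8200-3p, whose hairpin lies on the plus strand of chromosome V at 3057062 to 3057117 (WBcel235), outside protein-coding genes. It was at 65.4 and 78.0 RPM in WT and at 0.262 and 0 RPM in G199S. The WT libraries held 1743 of its reads and the G199S libraries 3, so the level was 441 times lower in G199S (95% counting interval 151 to 2141, edgeR adjusted p = 7.00e-05). It had no read in the null IP, 40.4 and 42.1 RPM in F180del, 69.1 and 89.2 RPM in V254I, and 1.23 and 1.19 RPM in H751L. Its other arm, miR-8200-5p, had 28 reads over the WT libraries and 1 over the G199S libraries, and lost its call whichever 1 library was left out (adjusted p 0.0579 to 0.237).

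Of the abundant guides, miR-90-3p fell from 45700 and 31830 RPM to 26660 and 20100 RPM (-1.02 ± 0.26, edgeR adjusted p = 0.0143). The call was lost without G199S library 2 (adjusted p = 0.170) or WT library 1 (0.168), and with library totals (0.133). miR-235-3p, which links feeding to the exit from first-stage arrest, was at 26730 and 18590 RPM in WT and at 17810 and 13670 RPM in G199S (-0.82 ± 0.26). miR-81-3p and miR-55-3p, members of the bantam and miR-51 families, changed by -0.93 ± 0.30 and -0.71 ± 0.23. For these last 3 and for miR-243-3p, miR-356b-3p and miR-797-5p the call was lost whichever 1 library was left out and with library totals.

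miR-243-3p, which C. elegans loads into the Argonaute RDE-1 rather than ALG-1, was at 256 and 186 RPM in WT and at 91.7 and 77.8 RPM in G199S (-1.67 ± 0.42, edgeR adjusted p = 0.0137). The null IP held it at 98.3 and 49.5 RPM, so the G199S and null values lay in one range and WT above them. miR-230-5p, a passenger, went from 71.6 and 79.1 RPM to 19.4 and 27.1 RPM, while the null IP was at 419 and 234 RPM. Its change of -2.002 ± 0.46 missed the threshold without G199S library 1 (adjusted p = 0.0914) or WT library 2 (0.0621).

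Beside the miR-35 family, 10 guides, as defined by total reads, rose. miR-85-3p went from 63.5 and 38.9 RPM to 1058 and 1324 RPM (4.26 ± 0.49, edgeR adjusted p = 8.43e-05), with the null IP at 205 and 232 RPM. miR-246-3p, linked to lifespan in C. elegans, went from 109 and 121 RPM to 1045 and 1137 RPM (2.94 ± 0.34). Both calls held whichever 1 library was left out. They were 2 of the 9 miRNAs on the list of stress and lifespan miRNAs, near the 20.4% called higher over all 269. On that list miR-90-3p was called lower, and the median log2 change was 0.40, beside 0.24 over the 269.

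miR-82-3p was the only one of the 10 above 10000 RPM. It went from 28310 and 28360 RPM to 67150 and 62800 RPM, while its family member miR-81-3p fell. Its change of 0.89 ± 0.28 lost the call whichever 1 library was left out (adjusted p 0.103 to 0.190) and with RLE (0.112). miR-240-3p and miR-786-3p come from hairpins next to each other on the plus strand of chromosome X (7882622 to 7882840, WBcel235). miR-786-3p, which sets the defecation rhythm in the posterior intestine, was at 627 and 338 RPM in WT and at 1561 and 1631 RPM in G199S, and the null IP was at 4895 and 1547 RPM. miR-77-3p, miR-253-3p, miR-75-5p, miR-239a-3p and miR-1823-3p had log2 changes of 2.25, 1.49, 4.23, 4.55 and 3.72. In WT, miR-239a-3p was the arm with fewer reads. Its other arm was at 357% and 817% of it in the WT IP and at 116% and 154% in WT total RNA. The other arm of mir-75 was at 124% and 110% of miR-75-5p in the WT IP.

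Passenger strands made up 0.272% and 0.232% of miRNA reads in the WT IP and 1.91% and 1.76% in the G199S IP. The difference of 1.58 percentage points was larger than the spread within either group, with the smallest p that an exact two-sided permutation of 2 against 2 libraries allows being 0.333. The null IP libraries differed from each other, at 0.635% and 0.258%. Summed over 190 passengers, the mean level went from 2521 to 18340 RPM, 7.28 times as much.

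A few passengers carried most of it. miR-58a-5p went from 372 and 231 RPM to 5815 and 3677 RPM and made up 25.9% of the passenger reads of G199S. miR-80-5p, of the same bantam family, went from 181 and 103 RPM to 2216 and 3103 RPM. miR-44-5p went from 18.7 and 20.0 RPM to 2242 and 2774 RPM (6.71 ± 0.58, edgeR adjusted p = 2.15e-05). Together with miR-77-5p and miR-79-5p these gave 67.3% of the passenger reads. All 5 were called higher. As a percent of its guide, miR-58a-5p was at 1.43% and 0.531% in WT and at 23.6% and 4.99% in G199S. That ratio was not called (limma adjusted p = 0.0622). In the null IP miR-58a-5p was at 2506 and 488 RPM, closer to G199S than the others, and miR-44-5p at 140 and 43.5 RPM.

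Other passengers rose from near absence. miR-790-3p went from 0.169 and 0.161 RPM to 24.4 and 28.5 RPM (6.93 ± 0.89), and miR-87-5p from 0.253 and 0.0806 RPM to 36.6 and 19.4 RPM (7.02 ± 0.89). Neither had a read in the null IP. miR-73-5p had no read in the WT libraries and 25 in the G199S libraries, so it was at least 11.0 times higher, taking 3 reads over the group as the floor. Its call and those of miR-41-5p, miR-45-5p and miR-56-5p were lost without either WT library (adjusted p 0.0563 to 0.172).

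Passenger to guide ratios were then compared hairpin by hairpin, which takes changes in the hairpin as a whole out of the comparison. Of 190 hairpins with both arms named, 83 had enough passenger reads to test. That filter used the mean passenger count over all IP libraries, those of G199S included. A passenger scarce in WT could therefore pass through its rise in G199S or another allele, which favours higher ratios among the 83. The ratio was higher in G199S for 30 (36.1%) and lower for 1 (1.2%) by limma at adjusted p under 0.05, so 37.3% were called, and the median log2 change of the 83 ratios was 1.66. These shares and this median hold only for hairpins chosen with that filter. Without the filter on passenger reads, the ratio was higher for 28 of 158 hairpins and lower for 2. The passenger was on the 5p arm in 21 of the 30 and in 57 of the 83. Among the 30, the guide was called higher in 4, lower in 4, not called in 21 and not tested in 1. Over all 146 guides tested, 10.3% were called higher and 7.53% lower, so these counts are near the common share. The counts were 14 without WT library 1, 17 without G199S library 2 and 18 without either of the others.

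In the mir-87 hairpin the passenger was at 0.0111% and 0.00505% of its guide in WT and at 2.02% and 1.96% in G199S, the largest change (7.65 ± 0.71 on the log2 scale, limma adjusted p = 9.04e-05). Its guide miR-87-3p was at 2275 and 1595 RPM in WT and at 1816 and 989 RPM in G199S and was not called. In mir-44, on chromosome II next to mir-42, the ratio went from 0.173% and 0.131% to 24.6% and 26.5%. mir-45 rose from 0.0683% and 0.104% to 5.98% and 6.998%. The guides miR-44-3p and miR-45-3p had almost the same counts in every library, at 10830 and 10870 RPM in WT library 1, and may share reads, so these ratios are uncertain.

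mir-790 went from 0.0217% and 0.0150% to 2.69% and 2.66%, and mir-51 from 0.00968% and 0.00247% to 0.548% and 0.429%. let-7 itself was among the 30, at 0.0362% and 0.0416% in WT and 1.72% and 0.677% in G199S. Even so, the passenger remained the minor strand in most of them. Over the 30 hairpins the median ratio was 0.107% in WT and 2.66% in G199S, and in 19 it was still under 5%. The G199S median leaves out mir-360, which had no ratio in G199S library 1.

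In a few hairpins the passenger came near or above the level of the guide. The miR-79 passenger was at 6.61% and 5.20% of its guide in WT and at 70.3% and 82.3% in G199S. The mir-357 and mir-4813 passengers reached 97.7% and 74.9%, and 84.3% and 149%, of guides that were themselves scarce. Outside the 30, the mir-236 passenger went from 61.9% and 33.9% in WT to 3104% and 756% in G199S. That of mir-250 went from 37.8% and 29.1% to 496.5% and 162.7%. Neither ratio was called (limma adjusted p = 0.185 and 0.0620). For mir-41 it was 300% and 180% in WT already and 7268% and 687% in G199S, also not called (limma adjusted p = 0.189). mir-360 was counted among the 30 although its named guide had no read in G199S library 1. Its arm defined as passenger was already the major one in the WT IP, at 1000% and 1100% of the named guide. The 1 ratio that fell was that of mir-75, from 124% and 110% to 13.7% and 6.41%. There the 5p arm, the guide by total reads, rose from 40.1 and 20.5 RPM to 671 and 707 RPM, while the 3p arm was not called.

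**Figure D4:**
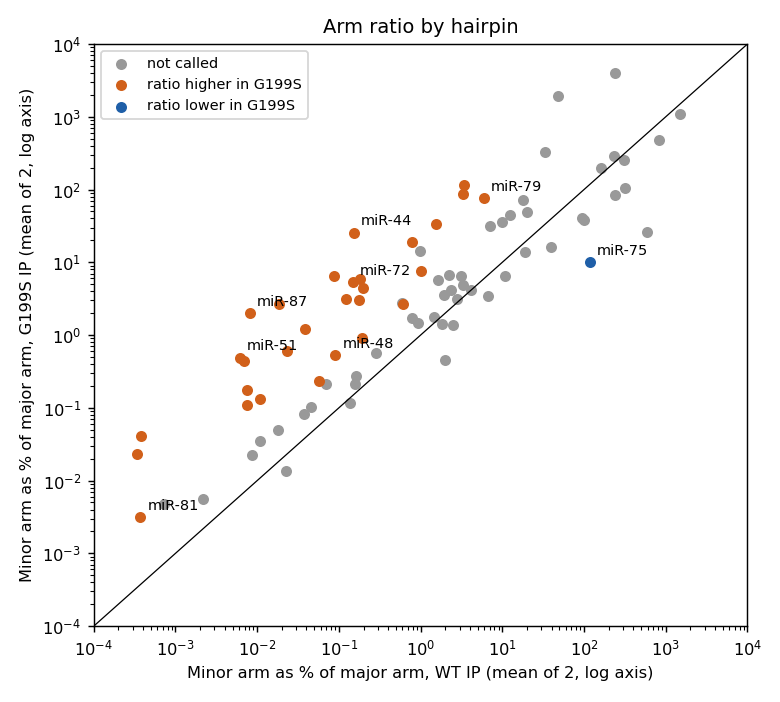
Minor arm as a percent of the major arm in WT IP (x axis) and G199S IP (y axis), both means of 2 libraries on log axes, for 81 of the 83 hairpins tested, those above 0 in both groups. Points above the line had more passenger per guide in G199S, and the called ones (orange) lie mostly where WT was under 1%.

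Against total RNA, most IP changes had the same sign in the lysate, but fewer were called there. In total RNA 33 of 303 miRNAs were higher (10.9%) and 3 lower (0.99%) in G199S, 11.9% in all. The split was 30 to 10 with RLE, 49 to 25 with DESeq2, 53 to 29 with only the groups compared and 26 to 13 with all precursor rows. Of the 55 miRNAs higher in the IP, 54 were tested in total RNA, 53 had the same sign there and 24 were called. Of the 13 lower ones, 10 had the same sign and 1, miR-8200-3p, was called. The median log2 change in total RNA was itself above 0, at 0.341, so a shared rise is partly the common direction. let-7-5p overlapped in total RNA, at 5616 and 7797 RPM in WT and 7395 and 5938 RPM in G199S. The miR-35 family was 1.55% and 1.97% of reads in WT total RNA and 9.54% and 12.1% in G199S total RNA, so its share was larger in total RNA than in the IP in both genotypes. In WT total RNA miR-85-3p had 13.0 and 12.6 RPM, and it had 2061 and 3091 RPM in that of G199S (7.47 ± 1.59 on the log2 scale, beside 4.26 ± 0.49 in the IP).

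The ratio of IP to total was tested in a fit of all 24 libraries with an interaction term. It differed between G199S and WT for 3 of 315 miRNAs (0.952%), all passengers and all higher in G199S, and 27 had an unadjusted p under 0.05, 13 higher and 14 lower. miR-250-5p, whose level in total RNA was 150 and 80.0 RPM in WT and 126 and 90.5 RPM in G199S, was at 11.98 and 12.33 RPM in the WT IP and at 210 and 167 RPM in the G199S IP. Its ratio was higher by 3.65 ± 0.76 (edgeR adjusted p = 0.0272). The ratios of miR-790-3p and miR-51-3p were higher by 4.85 ± 1.04 and 3.85 ± 0.92. With 1 of the 8 libraries compared left out in turn, the count was between 0 and 2. The direction was mixed under other settings, with 4 higher and 3 lower under RLE, 4 and 5 without the filter, and 11 and 16 with only the groups compared.

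In the other direction, miR-84-5p was at 1496 and 1949 RPM in WT total RNA and at 5707 and 10480 RPM in G199S total RNA, while its IP level was lower in G199S. The ratio changed by -3.69 but was not called (edgeR adjusted p = 0.179). miR-797-5p had a similar pattern, at 7.10 and 7.63 RPM in WT total RNA and 30.6 and 60.5 RPM in G199S total RNA (-4.10, edgeR adjusted p = 0.0566). The share of passengers in total RNA was 0.505% and 0.391% in WT and 1.36% and 1.21% in G199S. Arm ratios in total RNA were higher for 13 of 99 hairpins (13.1%), and 10 of the 30 hairpins called in the IP were among them.

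**Figure D5:**
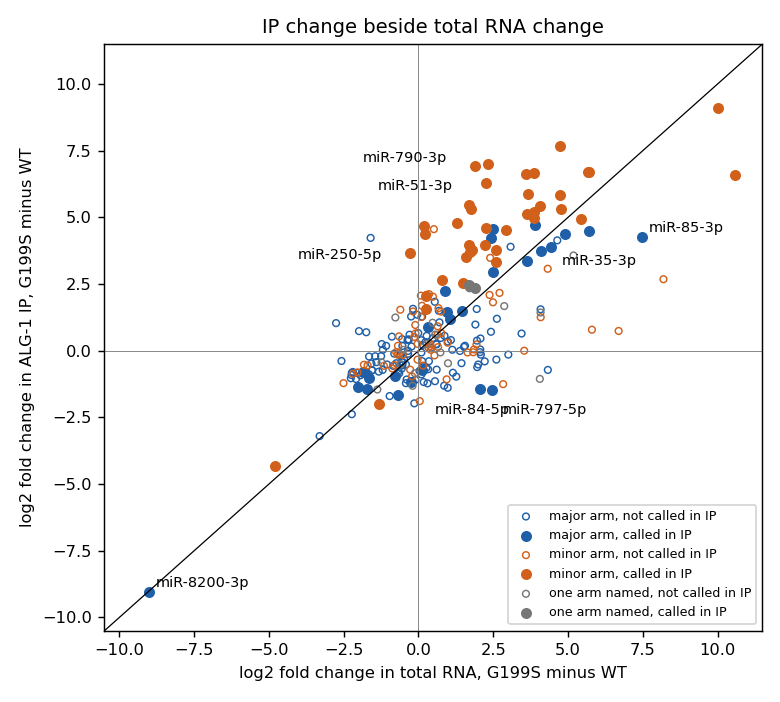
Log2 fold change in the ALG-1 IP (y axis) against that in total RNA (x axis), G199S minus WT, for the 259 miRNAs tested in both, with filled points for those called in the IP. Called passengers (orange) lie mostly above the diagonal, and miR-84-5p and miR-797-5p lie at the lower right.

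Compared directly with the F180del IP, the G199S IP had 13 of 269 miRNAs higher (4.83%) and 8 lower (2.97%), 7.81% in all. With library totals the balance turned to 9 higher and 16 lower, and with DESeq2 it was 25 and 25. The 4 abundant members of the mir-35 to mir-41 cluster were among those higher. miR-35-3p was at 3182 and 3900 RPM in F180del, and G199S was higher by 3.54 ± 0.26 (edgeR adjusted p = 9.09e-06). miR-37-3p, miR-39-3p and miR-40-3p were higher by 3.33, 3.46 and 3.32. let-7-5p was at 17350 and 17740 RPM in F180del, so G199S was lower than it by 0.85 on the log2 scale (SE 0.21, edgeR adjusted p = 0.0310).

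Passengers differed in both directions between the 2 alleles. miR-790-3p, miR-42-5p, miR-51-3p and miR-44-5p were higher in G199S, by 3.14, 2.49, 2.46 and 1.83. miR-72-3p, miR-48-3p and miR-85-5p were lower. miR-85-5p had no read in G199S or WT and was at 5.08 and 11.3 RPM in F180del. miR-48-3p was at 4361 and 2626 RPM in F180del and at 413 and 238 RPM in G199S, beside 75.5 and 54.2 RPM in WT. Arm ratios between the alleles were called in 0 of 83 hairpins by limma, with 11 at an unadjusted p under 0.05, 3 higher and 8 lower in G199S. The passenger share of 1.83% ± 0.10 in G199S (SD, n = 2) lay below the 3.07% ± 0.42 of F180del. The count of 21 miRNAs fell to between 6 and 8 with any 1 library of either allele left out.

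The level in the null IP did not sort the changes in one way. Among the 55 miRNAs higher in G199S than in WT, the null IP mean was above the WT mean for 32 and above the G199S mean for 5. For the other 23 the null IP lay at or below WT. The part that co-purified material without ALG-1 has in these levels was not tested.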

How the data were processed

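Small RNA libraries (NEXTflex kit, Illumina NextSeq) were made from total RNA or ALG-1 IP of whole animals, per the labels' protocols. The authors deposited read counts per mature miRNA and precursor, and an RPM table (reads per 1000000 miRNA reads). Per the submitters' processing notes, the tools were Bowtie 1.2.2, FastQC 0.11.8, cutadapt and DESeq2, with no roles given. How multiply matching reads were treated, and on which build and annotation, is not given in the sources used here. Near-identical miRNAs (the miR-35 family, miR-44-3p and miR-45-3p) may share reads. Counts on a second deposited sheet were identical in 100% of cells, and deposited RPM values lay within 1 RPM of count divided by library total in 100%. Another sheet, whose 48 per-sample columns match no label, was left unused.

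The table's 450 rows (253 precursors) hold 437 names. For 10 names listed more than once the row with most reads was kept, which removed 13 rows. Tests on counts used edgeR 4.0.16 under R 4.3.3 (filterByExpr, TMM, quasi-likelihood F-test). The 12 IP libraries shared 1 fit, as did the 12 total libraries, and the IP to total ratio used all 24. SE is the log2 change divided by the square root of F. Arm ratios used limma 3.58.1 (trend) on log2 counts plus 0.5, for a mean passenger count of at least 10 over all libraries of the fit, G199S included. Fits were tested on simulated data. Count intervals are exact at 95%. These and the floor of 3 reads cover counting error only.

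Hairpin positions come from the WBcel235 annotation by name, for 267 of 269 miRNAs (not let-7). Members and lists were chosen with earlier results of these data known. Named were the 12 largest rises, up to 15 falls, the miR-35, let-7 and lin-4 families, called members of other lists, the 5 most-read miRNAs of the WT IP and the 5 largest arm-ratio changes. Other guides called higher, passengers with most reads, and further hairpins and miRNAs in the comparisons with total RNA and F180del were named after their values were seen. Libraries of a group differed by more than sampling noise. Alternatives were other scalings, no filter, DESeq2 1.42.0, other sets of libraries, all precursor rows, other arm definitions, a replicate block and leaving out each library.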

Additional observations from a re-analysis of the deposited data

Results flagged for a closer look

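The IP to total ratio differed between G199S and WT by an interaction test for 3 passengers. Its log2 difference, G199S minus WT, was 4.85 for miR-790-3p, 3.85 for miR-51-3p and 3.65 for miR-250-5p (SE 1.04, 0.92 and 0.76, n = 2 per group; edgeR adjusted p = 0.0272, 0.0459 and 0.0272). For each of them the 2 G199S IP libraries were above the 2 of WT, as they were for 131 of 269 miRNAs (48.7%) and 70 of 104 passengers.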

How the results depend on the processing

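The IP count of 68 was 66 to 100 with other scalings, filters, tools and sets of libraries, and 31 to 48 with any 1 library left out. The fit without the null libraries called all 68 among its 100, and DESeq2 66 among its 90. These split into 72 higher and 28 lower, and 57 and 33. The total RNA count of 36 was 62 without the filter, 74 with DESeq2 and 82 with only the groups compared, and 12 to 21 with any 1 library left out. The ratio count of 3 was 7 with RLE or the replicate block, 9 without the filter or without the null libraries, 15 with DESeq2 and 27 with only the groups compared, and 0 to 2 with any 1 library left out. The count of 21 against F180del was 50 with DESeq2, 70 with only the groups compared and 68 without the null libraries, and 6 to 8 with any 1 library left out. The hairpin count of 31 was 24 to 43 under other settings and 14 to 18 with any 1 library left out, and the passenger difference of 1.58 points stayed between 1.51 and 1.65. With a lone library in a group, that library is assumed to vary like the other groups. All precursor rows gave 65 calls in the IP, 55 higher and 10 lower. The replicate block gave 71 calls in the IP, 67 of them shared. Replicate numbers are shared by label only, and the correlation of replicate differences between G199S IP and WT IP was 0.412, beside -0.0962 to 0.497 over all pairs of IP groups. Direction turned for 3 named miRNAs that were never called. miR-51-5p (-0.11) was 0.195 with library totals and -0.276 to 0.0877 with any 1 replicate left out (0.0577 without WT replicate 2). miR-790-5p (-0.22) was 0.0993 with library totals and -0.463 to 0.164 with any 1 replicate left out. miR-793 (-0.50) was -0.859 to 0.0707 with any 1 replicate left out. The cause of these shifts was not tested. A count of 0 allows up to 3 reads, 0.242 to 0.430 RPM in these 4 libraries.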
